A study of Mus musculus with 3 samples.

Results

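The genes that build and run the DNA replication fork were followed through an Ets-1 ChIP-seq experiment in Min6, a line of mouse insulinoma cells that makes and secretes insulin as β cells do. The group holds 41 genes, and its members were found by the gene name that the deposited annotation gives to each region. Of 543367 compared regions, 221 carried the name of a member, spread over 34 of the 41 genes; 47 of these regions, at 26 genes, were annotated as promoters. 3 libraries were compared, with 1 library in each group. Chromatin was precipitated with an Ets-1 antibody (CST 14069S) from cells infected for 24 h with a GFP adenovirus (Ad-GFP, here the control virus) or with one made to overexpress Ets-1 (Ad-Ets-1), and the remaining library was unprecipitated input chromatin, for which the labels name no virus. All cells grew in 25 mM glucose. With single libraries, no difference below could be set against replicate spread, so no p-values are given.

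Replication starts where the origin recognition complex (Orc1 to Orc6) sits on DNA and, with Cdc6 and Cdt1, loads the ring-shaped MCM helicase. Cyclin-dependent kinase Cdk2 and the factors Cdc45, GINS and Mcm10 turn the loaded ring into a moving helicase. Primase and DNA polymerase α then lay down primers, replication factor C (Rfc1 to Rfc5) loads the sliding clamp Pcna, polymerases δ and ε copy the strands, RPA covers single-stranded DNA, and Fen1 and Lig1 join the lagging strand. Most of these genes are switched on together as cells enter S phase, classically through E2F factors. Ets-1 belongs to the ETS family, whose members recognise DNA with GGAA at its centre. β-cell lines such as Min6 divide, unlike most adult β cells. The libraries hold DNA, so whether the genes were transcribed was not measured.

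The libraries were shallow. Read totals implied by the deposited counts were 1938473 (Ets-1 virus), 1775757 (control virus) and 3937473 (input). At the member promoters 76.6% of regions held at most 2 reads in both precipitated libraries, close to the 77.6% of all 41781 promoter regions. Read ratios between the viruses are scaled to the library totals. The 95% exact binomial intervals beside them are computed on fragments of 2 reads each, because counts in the precipitated libraries were mostly even. Odd counts were rounded up to whole fragments. Where counts were odd, the interval is therefore that of the fragment ratio and not of the printed read ratio. The intervals cover counting error only and make no allowance for regions having been chosen by their reads. No molecular identifiers are named, so PCR copies may be counted as separate reads.

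The sequences on which the results turn come from the GRCm38 reference (mm10) and are printed in the direction of the gene, 5′ to 3′. The first set holds the DNA at the start of Rfc4, the shared upstream DNA of Mcm4, and the first coding exon of Pif1. These are an Ets-1 virus region with an ETS word, an Ets-1 virus region deposited under the name of a neighbour, and the most heavily read member region. Capitals mark the ETS word CCGGAAGT or the E2F word TTTCCCGC.
Rfc4, chr16:23127738-23127987, minus strand: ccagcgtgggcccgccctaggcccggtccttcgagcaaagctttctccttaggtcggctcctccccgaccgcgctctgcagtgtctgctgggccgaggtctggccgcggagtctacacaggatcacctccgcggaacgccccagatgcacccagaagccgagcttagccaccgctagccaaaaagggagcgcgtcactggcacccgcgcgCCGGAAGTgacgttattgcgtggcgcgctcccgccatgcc
Mcm4, chr16:15637519-15637767, minus strand: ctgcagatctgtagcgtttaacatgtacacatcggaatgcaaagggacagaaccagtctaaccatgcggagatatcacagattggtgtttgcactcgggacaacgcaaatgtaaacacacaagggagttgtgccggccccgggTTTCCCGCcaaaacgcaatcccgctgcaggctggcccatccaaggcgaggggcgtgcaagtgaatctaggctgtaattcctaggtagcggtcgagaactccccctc
Pif1, chr9:65587862-65588111, plus strand: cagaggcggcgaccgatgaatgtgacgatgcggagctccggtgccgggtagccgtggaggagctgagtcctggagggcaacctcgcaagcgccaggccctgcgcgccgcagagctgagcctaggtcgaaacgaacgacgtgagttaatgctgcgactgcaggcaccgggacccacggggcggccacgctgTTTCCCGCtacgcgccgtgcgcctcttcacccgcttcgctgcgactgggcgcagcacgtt

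The second set holds 250 bases around the summits of the regions named for Rfc2 and Rfc1, shown for their repeat content. Masked repeats make up 72.4% of the Rfc2 region and 44.8% of the Rfc1 region, and 179 and 65 of the bases printed. Capitals here mark bases that the reference masks as repeats.
Rfc2, chr5:134591290-134591539, plus strand: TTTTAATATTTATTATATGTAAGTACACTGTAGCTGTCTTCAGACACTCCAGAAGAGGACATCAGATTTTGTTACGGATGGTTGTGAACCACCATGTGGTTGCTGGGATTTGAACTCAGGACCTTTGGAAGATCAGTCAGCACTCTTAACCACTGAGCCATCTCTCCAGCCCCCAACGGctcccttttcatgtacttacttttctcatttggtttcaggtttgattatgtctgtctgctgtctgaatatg
Rfc1, chr5:65336706-65336955, minus strand: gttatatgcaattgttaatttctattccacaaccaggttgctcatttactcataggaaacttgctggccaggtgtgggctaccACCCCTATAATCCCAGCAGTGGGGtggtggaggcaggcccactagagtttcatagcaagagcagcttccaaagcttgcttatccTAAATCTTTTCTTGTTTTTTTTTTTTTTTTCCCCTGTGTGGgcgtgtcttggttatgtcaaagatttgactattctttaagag

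The clamp loader genes showed reads in both directions. Rfc4, a small subunit of replication factor C, had a promoter region (chr16:23127468-23128597) that the Ets-1 virus library covered with 12 reads and the control virus and input libraries with 0. Scaled to depth this was at least 3.66-fold higher with the Ets-1 virus, the control virus being taken at a floor of 3 reads, and the lower 95% bound of the fragment ratio was 1.08. Among the 5 member regions read with the Ets-1 virus alone or nearly so, this was the single one whose fragment bound lay above 1. The 5 include the one at Mcm4 described below. All were chosen through their Ets-1 virus reads, so the Rfc4 bound does not establish a difference. The region runs from 860 bp upstream to 269 bp downstream of the principal start site, the start of the transcript that GENCODE M21 marks as principal. It covers the start of a divergent non-coding gene, 6330408M09Rik, 56 bp away from that of Rfc4, so reads of the shared start cannot be assigned to either gene. The summit lay 43 bp upstream of the Rfc4 start, 3 bp from the edge of the word CCGGAAGT on the gene's strand (chr16:23127770-23127777), the capitals in the Rfc4 sequence above. By the authors' deposited table the peak had a fold of 3.71 over local background and a q of 0.0289. A further region annotated as an Rfc4 promoter held 2 Ets-1 virus and 4 control virus reads, which does not separate the viruses at this depth.

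Rfc2 and Rfc1 stood apart from Rfc4 in position and sequence. The region named for Rfc2, another small subunit (chr5:134591283-134591626), held 10 Ets-1 virus reads, 0 control virus reads and 1 input read. It was at least 3.05-fold higher with the Ets-1 virus against the floor of 3 reads, with a lower bound of 0.839 on fragments. By the authors' deposited table it had a fold of 5.41 and a q of 0.000123. It is annotated as a promoter because a transcript subject to nonsense-mediated decay starts inside it. It lay 8593 to 8936 bp downstream of the principal Rfc2 start, inside an intron of the principal transcript, and 72.4% of its bases are masked repeats, with 3 CpG dinucleotides in 344 bp. Within 1 kb of the principal Rfc2 start no region was listed.

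Rfc1, the large subunit of the same loader, showed the opposite order. Its region (chr5:65336379-65337003) held 12 control virus reads and 0 in each of the other libraries. It was at least 4.37-fold higher with the control virus against the floor. The fragment ratio of Ets-1 virus to control virus had an upper bound of 0.778. The region was chosen through its control virus reads, so this bound does not establish a difference either. The region lay 709 to 1333 bp upstream of the start, and 44.8% of it is masked repeat. By the authors' deposited table its fold was 3.68 with a q of 0.0258. Rfc3 and Rfc5 had promoter regions with 1 and 2 control virus reads and 0 Ets-1 virus reads. Pcna, the clamp itself, was named for no region and had none within 1 kb of its principal start.

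Among the helicase genes, Mcm7 and Mcm4 held Ets-1 virus reads near their starts. Mcm7 encodes a subunit of the MCM ring. Its region (chr5:138171335-138171847) held 9 Ets-1 virus reads and 0 in each of the other libraries, at least 2.75-fold higher against the floor, with a lower bound of 0.839 on fragments. It lay 575 to 1087 bp inside the gene, over the end of the first exon and the start of the first intron of the principal transcript, and it holds 36 CpG dinucleotides in 513 bp. Further Mcm7 transcripts start within it. By the authors' deposited table its fold was 3.57 and its q 0.0377. The start of the divergent gene Ap4m1 lies 160 bp from that of Mcm7 and outside the region.

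Mcm4 was named for no region, yet a region lay 119 to 367 bp upstream of its start (chr16:15637519-15637767). The annotation gives that region to Prkdc, the divergent neighbour that encodes the catalytic subunit of DNA-dependent protein kinase and starts 466 bp away. It held 9 Ets-1 virus, 1 control virus and 2 input reads. The read ratio was 8.24. The interval of the fragment ratio, 0.513 to 217, spans 1 (on reads, the lower bound was 1.14). The read ratio uses the 1 control virus read itself and not the floor. It cannot be ranked against the ratios of regions with 0 control virus reads. The E2F word TTTCCCGC on the Mcm4 strand lay 4 bp from the summit. By the authors' deposited table the peak had a fold of 2.78 and a q of 0.360. The remaining helicase genes were read little. Mcm5 had 4 promoter regions with 5 Ets-1 virus, 4 control virus and 2 input reads in all, Mcm3 had 1 Ets-1 virus read and Mcm6 1 control virus read, and Mcm2 was named for no region.

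Of the licensing factors and regulators, Cdk2 had the most reads in a single promoter region. That region (chr10:128705029-128705297), 26 to 294 bp upstream of the principal start, held 7 Ets-1 virus reads, 0 control virus reads and 1 input read. It was at least 2.14-fold higher against the floor, with a lower bound of 0.605, so at Cdk2, as at Rfc2 and Mcm7, the difference was not larger than counting error on fragments. Counted on single reads, the lower bounds were 1.32 at Cdk2, 2.05 at Rfc2 and 1.81 at Mcm7, all above 1. The call thus depends on the counting unit. Sequencing was paired-end, and mates of a fragment are not independent, so bounds on reads are too narrow where the reads are mates. By the authors' deposited table the Cdk2 region had a fold of 4.51 and a q of 0.00364. The region is GC-rich at 64.7%, holds no masked repeat, and covers a start of the divergent gene Pmel, a pigment cell gene, which lies 177 bp from that of Cdk2. A separate region within 1 kb of the Cdk2 start, named for Pmel, held 0 Ets-1 virus and 4 control virus reads. Mcm10, which helps to activate the helicase, held 8 Ets-1 virus and 4 control virus reads over 4 promoter regions, none with more than 4 reads in a library. Cdc6 had 1 region, which was not a promoter and held at most 2 reads, and Cdt1 was named for none.

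**Figure D1:**
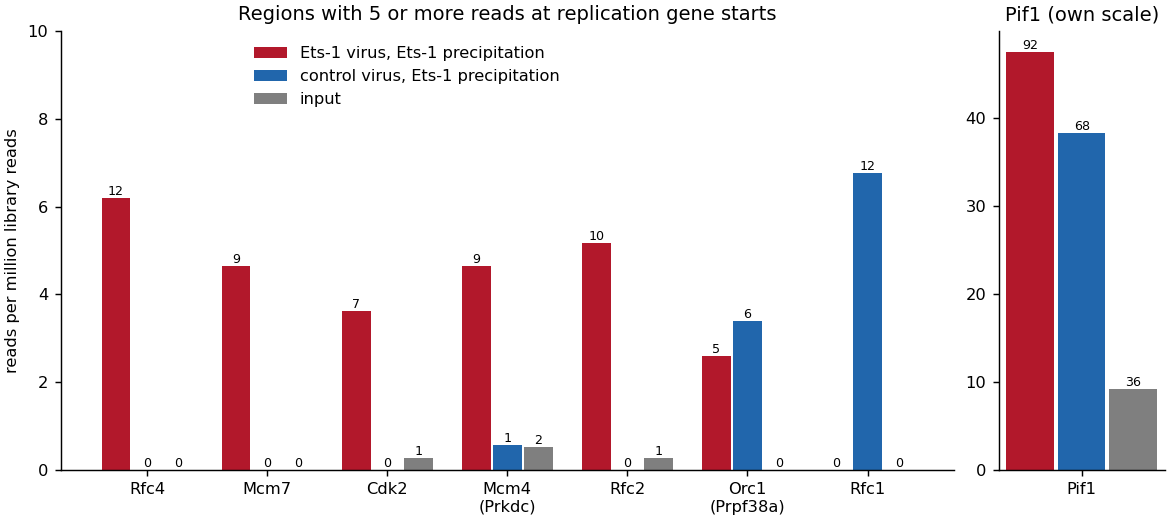
Depth-scaled reads (RPM) in the 8 regions with 5 or more reads in a precipitated library that were named for a member promoter or lay within 1 kb of a principal start; bars are the 3 libraries, numbers are raw reads, names in brackets are the deposited gene names, and Pif1 has its own scale. Rfc4, Mcm7, Cdk2 and Rfc2 had Ets-1 virus reads and no control virus reads, Rfc1 the other way round, and Pif1 in all 3 libraries.

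Pif1, a helicase that unwinds G-quadruplexes and acts in Okazaki fragment processing, had the most reads of any member. Its region (chr9:65587822-65588209) held 92 Ets-1 virus, 68 control virus and 36 input reads. The viruses did not separate, at a ratio of 1.24 with an interval of 0.778 to 1.99. After scaling, the Ets-1 virus reads were 5.19 times and the control virus reads 4.19 times those of the input. These ratios may be off in size, because 19.0% of nonzero input counts were even against 72.0% (Ets-1 virus) and 74.5% (control virus), so the input may have been counted in another unit. Only 33 of the 41781 promoter regions held as many Ets-1 virus reads or more. In the input too only 33 held as many reads or more, and with the control virus 38. The whole region is coding sequence, 601 to 988 bp downstream of the nearest principal start, with 67.5% GC, 42 CpG dinucleotides and no masked repeat. The E2F word printed in capitals above lies in this coding sequence, 831 bp downstream of that start and 65 bp from the nearer summit. By the authors' deposited table the fold was 5.86 in the Ets-1 virus list and 3.86 in the control virus list, at −log10 q of 10.3 and 3.17. Pif1 held more than 2 input reads, as no other member promoter region did. Whether the high input bears on the precipitated reads was not tested. Lig1, the ligase that seals Okazaki fragments, had 2 promoter regions with 2 Ets-1 virus and 3 control virus reads in all, and Fen1, the flap nuclease, was named for no region.

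Positions relative to the principal start separated these regions. Those of Rfc4, Cdk2, Mcm4 and Orc1 reached to within 127 bp of the start or across it, while those of Mcm7 and Pif1 lay inside the gene, that of Rfc1 upstream, and that of Rfc2 in a distant intron.

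**Figure D2:**
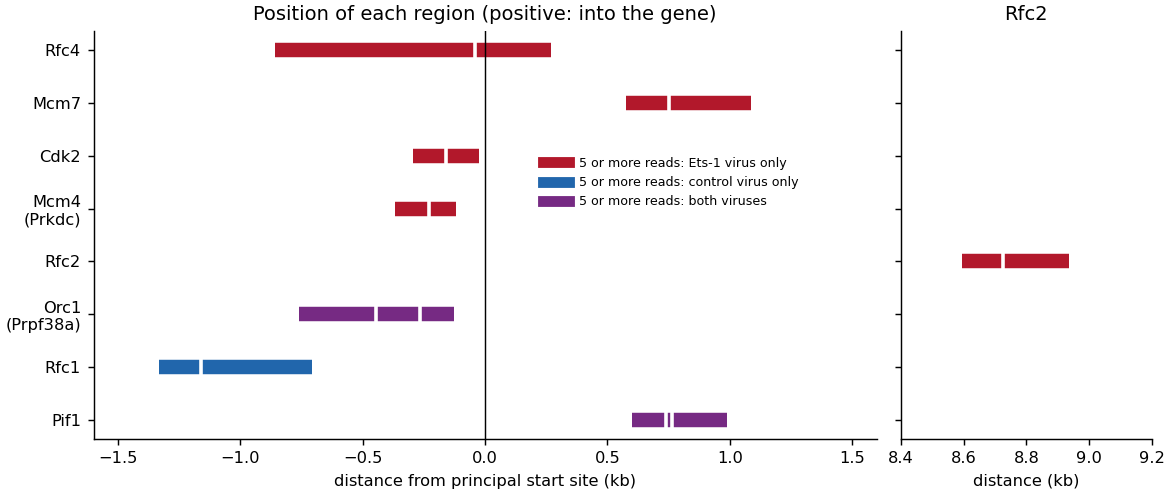
Distance in kb of the 8 regions from the nearest principal start site, positive into the gene; bars span the region, white ticks mark the deposited summits, and colour shows which precipitated library held 5 or more reads. Rfc2 is drawn on its own axis because it lies 8593 to 8936 bp inside the gene.

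The origin recognition genes were read thinly in both libraries. Orc1, the largest subunit of the complex, had no region under its own name at its start. A region of its divergent neighbour Prpf38a, a splicing factor gene that starts 118 bp away, lay 127 to 761 bp upstream (chr4:108578693-108579327). It held 5 Ets-1 virus and 6 control virus reads, at a read ratio of 0.763. The interval of the fragment ratio was 0.123 to 6.84, so no difference was detectable. Orc2 held 6 reads with each virus over 3 promoter regions. Orc4 held 6 Ets-1 virus and 2 control virus reads, Orc5 held 8 and 2, and Orc3 held 0 and 5. No single promoter region of these genes held more than 4 reads in a library. Outside promoters, an Orc3 intron region (chr4:34607357-34607605) held 7 Ets-1 virus, 0 control virus and 2 input reads, or at least 2.14-fold more than the floor. A distal region named for Orc6 held 1 Ets-1 virus, 6 control virus and 1 input reads, with a deposited q of 0.0324 in the control virus list of the authors' deposited table.

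The promoters of the polymerase and primase genes held 3 reads or fewer per region in each precipitated library. Control virus promoter peaks were listed for 6 of 8 of them (Pola1, Prim1, Prim2, Pold2, Pole and Pole2) and Ets-1 virus peaks for 2 (Pola1 and Pole2), where 41.2% and 31.9% of all protein-coding genes had one. The control virus list was also the longer one, with 339856 peaks against 237322. Over their 9 promoter regions, 5 reads came from the Ets-1 virus, 15 from the control virus and 0 from the input. Pole2, a polymerase ε subunit, held 3 Ets-1 virus and 4 control virus reads. Prim1, the catalytic primase subunit, held 1 and 3. These numbers do not allow a difference to be read at a single gene. In an intron of Pola1 (chrX:93444643-93444891), 5 Ets-1 virus reads stood against 0 in the other libraries, with a q of 0.0376 in the authors' deposited table. Gins1 held 4 and Gins3 held 2 control virus reads, with 0 from the Ets-1 virus, and Gins2 held 2 Ets-1 virus reads and 0 control virus reads. Cdc45 and Gins4 had regions but no promoter region, and so did Rpa1, Rpa2 and Rpa3, at 4 reads or fewer in each precipitated library. Pola2 and Pold1 were named for no region.

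**Figure D3:**
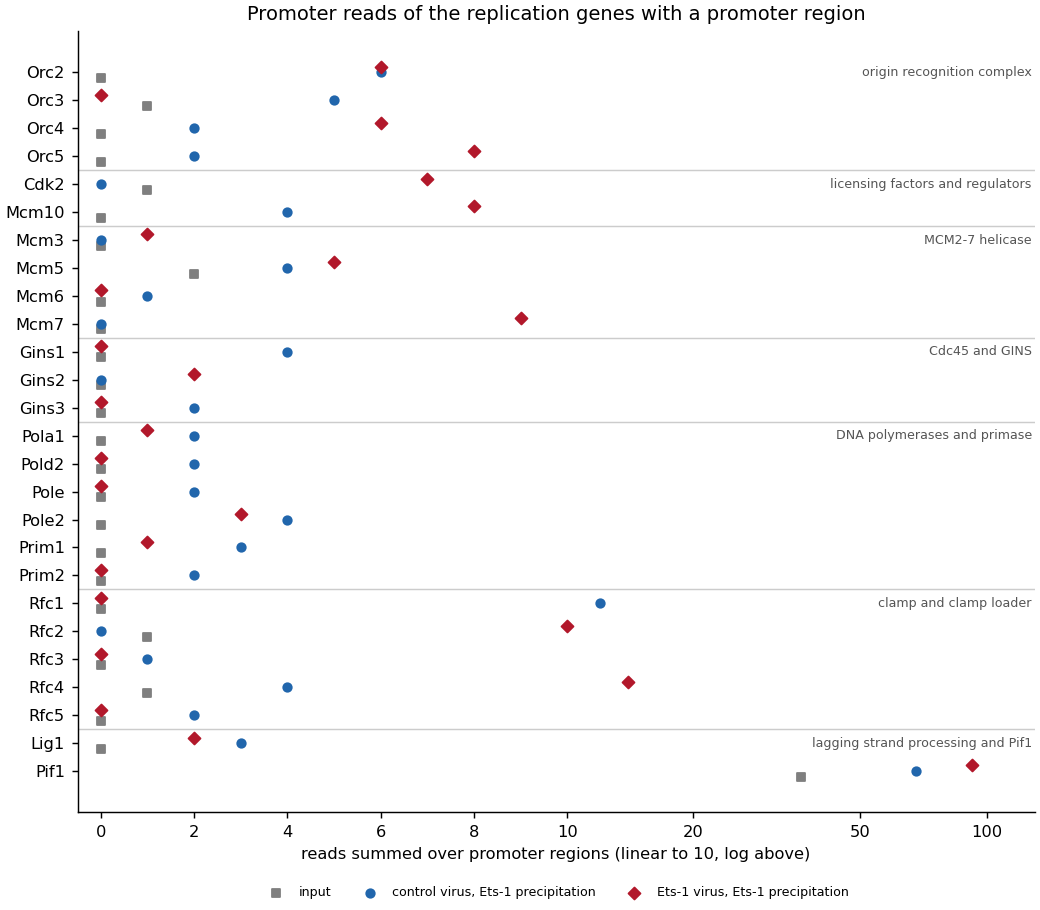
Raw reads summed over the promoter regions of each of the 26 members that had one, ordered by role; points are the 3 libraries and the axis is linear up to 10 reads and logarithmic above. Most members lie at 8 reads or fewer in each library, and Pif1 stands alone with 92, 68 and 36 reads.

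Counted over genes, the replication group was close to other genes as deposited. With the control virus 21 of 41 members had a listed promoter peak (51.2%) against 41.2% of 21951 protein-coding genes, and with the Ets-1 virus 14 did (34.1%) against 31.9%. Both lists held Mcm5, Mcm10, Orc2, Orc4, Orc5, Rfc4, Pola1, Pole2 and Pif1, which are 42.9% of the 21 and 64.3% of the 14. Over all protein-coding genes 20.7% were in both lists, which is 50.2% of the control virus list and 64.9% of the Ets-1 virus list. These overlaps are by gene and not by site. Of the 47 member promoter regions, 5 were themselves in both lists. Of the member promoter peaks, 27 of 30 in the control virus list and 13 of 20 in the Ets-1 virus list had the largest q of their list, 0.764 and 0.820. At a deposited q of 0.05 or less, 5 members were left with the Ets-1 virus (Pif1, Rfc2, Cdk2, Rfc4 and Mcm7), or 12.2% against 1.44% of all protein-coding genes. With the control virus 2 were left (Pif1 and Rfc1), or 4.88% against 0.647%. Cdk2, Mcm7, Pif1, Rfc1 and Rfc2 were known from earlier results of these data when the group was proposed, so these counts are descriptions and not evidence about the group.

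The annotated promoters include starts of short and minor transcripts. With a region of either list required within 1 kb of a principal start, whatever gene it was named for, 13 members had a control virus region (31.7%) against 22.8% of 21851 genes, and 9 had an Ets-1 virus region against 18.2%. Of 26 members with an annotated promoter region, 11 had none within 1 kb of a principal start: Gins1, Gins2, Lig1, Mcm3, Mcm6, Orc3, Pola1, Pold2, Pole2, Rfc2 and Rfc5. Mcm4 and Orc1 were gained. A region with 5 or more reads lay in that window for 7 members (17.1%), namely Cdk2, Mcm4, Mcm7, Orc1, Pif1, Rfc1 and Rfc4, against 5.06% of all. Cdk2, Mcm7, Pif1 and Rfc1 were known from earlier results of these data, and the window was added after values were seen. The counts in this window are therefore also descriptions and not evidence about the group.

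**Figure D4:**
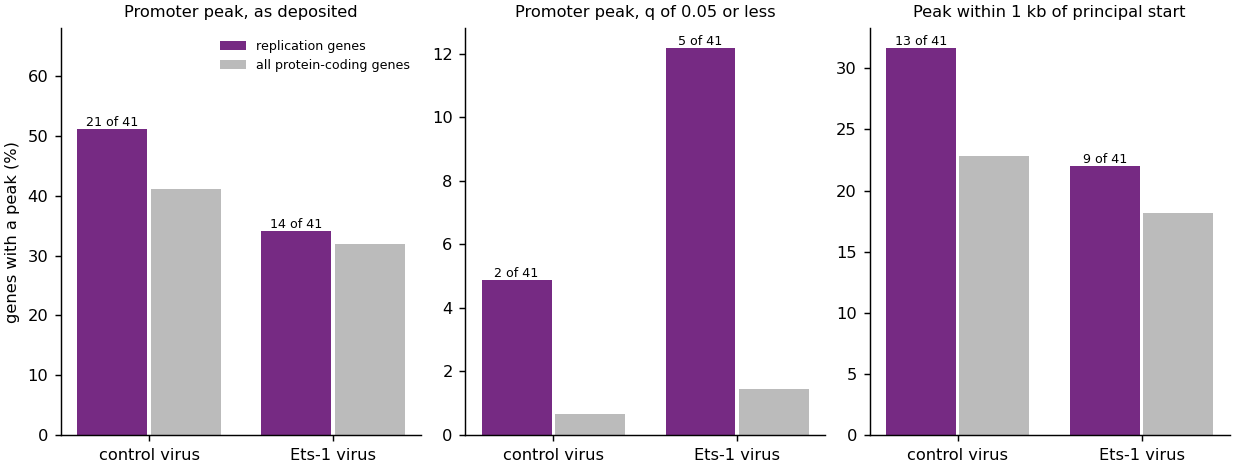
Percent of the 41 replication genes and of all protein-coding genes with a promoter peak as deposited, with a promoter peak of deposited q of 0.05 or less, and with a listed region within 1 kb of a principal start, for each precipitated library. Members were near the other genes as deposited (21 and 14 of 41), and 5 of 41 had an Ets-1 virus promoter peak at the stricter q.

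Between the viruses, 6 member promoter regions held 5 or more reads in either library. Of these, 4 were at least 2-fold higher with the Ets-1 virus (Rfc4, Rfc2, Mcm7 and Cdk2), against 27.2% of 2608 such promoter regions of all genes. Lower by the same factor was 1, Rfc1, against 29.2%. All but Pif1 reached 5 reads through 1 library alone, so the minimum itself favoured regions that differ, and nothing is read from these counts. Summed over all 47 member promoter regions, 175 Ets-1 virus reads and 135 control virus reads fell on 14390 bp, or 12.2 and 9.38 reads per kb, against 42 input reads. The scaled ratio of these sums was 1.19, with an interval of 0.861 to 1.64, so the sums did not separate. Pif1 supplied 92 and 68 of these reads. Without it, 83 and 67 reads were left, or 5.93 and 4.79 reads per kb. The ratio was then 1.13, with an interval of 0.723 to 1.81. Over the 6 regions with 5 or more reads, chosen as above, it was 1.49, with an interval of 1.01 to 2.30. For promoter regions of all genes the ratio of sums was 0.948, and 0.786 without regions of over 1000 reads, a size that no member region reached. Scaled instead to reads in listed regions, the ratio over the 47 member regions was 1.52, with a lower bound of 1.10, and that of all promoters 1.21. Whether the member interval spans 1 thus depends on the scaling and on the regions kept.

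Ratios to the input at the member promoters carry the same doubt over counting units as at Pif1. The summed reads were 8.46 (Ets-1 virus) and 7.13 (control virus) times that of the input, or 28.1 and 24.8 times without Pif1, which holds 36 of the 42 input reads. Regions entered the table because they were called in a precipitated library, so a ratio above 1 is built into the choice of regions. Scaled to reads in listed regions, the ratios were 0.586 and 0.385.

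Sequence words, which the choice of members did not use, were counted in the promoters of the replication genes. In RefSeq windows from 250 bases before to 50 after a start (GRCm38.p6), 33 of the 41 members were matched among 17491 protein-coding genes. The E2F words TTTGGCGC, TTTCCCGC, TTTCGCGC or TTTGCCGC, read on both strands, stood in 15 of 33 members (45.5%) and 3.29% of all genes, among them Mcm3, Mcm5, Mcm6, Mcm7, Cdc6, Cdt1, Orc1 and Cdk2. The ETS core CCGGAA stood in 18 of 33 (54.5%) and 20.9% of all genes. The longer ETS words CCGGAAGT or CAGGAAGT, of which the first contains the core, stood in 7 of 33 (21.2%) and 9.24% of all genes, namely Gins3, Mcm10, Orc3, Rfc3, Rfc4, Rpa2 and Rpa3. CCAAT stood in 22 of 33 (66.7%) and 42.3%. All of these E2F words and the ETS core contain CG, and the genes compared were not matched for base content. Whether the shares differ at matched base content was not tested. An ETS word stood in 2 of 11 matched members with an Ets-1 virus promoter peak and in 5 of 22 without one, and the core in 8 of 11 and 10 of 22. These peaks need not lie in the windows where the words were read. Of the carriers with a peak, Mcm5, Mcm10 and Pola1 had no Ets-1 virus region within 1 kb of a principal start. Most member promoter peaks of that list also had its largest q, so nothing is read from this split. In windows of 200 bp at the summits of member promoter regions, the ETS words stood in 1 of 47, that of Rfc4, and in 1.84% of all promoter regions. The core stood there in 5 of 47, at Cdk2, Mcm10, Orc5, Prim2 and Rfc4, and in 2.88% of all. The E2F words stood there in 2 of 47, at Cdk2 and Pif1, and in 0.496% of all. CCAAT stood there in 31.9% of the member regions and 25.8% of all. A match is a description of letters and not of binding.

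**Figure D5:**
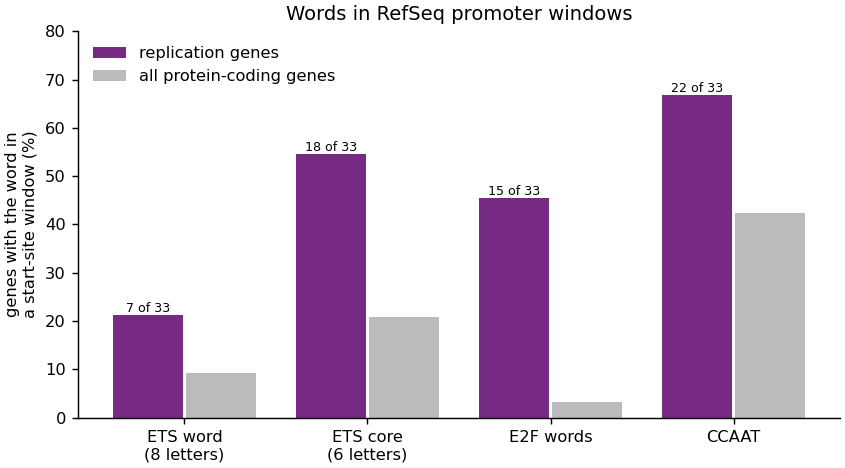
Percent of genes whose RefSeq promoter windows hold each word on either strand, for the 33 matched replication genes and for 17491 protein-coding genes; numbers on the bars are members. The E2F words stood in 15 of 33 members against 3.29% of all genes, and the ETS core in 18 of 33 against 20.9%. The genes compared were not matched for base content.

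Of the member regions outside promoters, 174 in number, 7 held 5 or more reads in a precipitated library and none more than 7. Introns held 52.5% of member regions and 34.1% of all regions, and distal intergenic sites 10.4% against 52.6%. Beyond the Orc3, Orc6 and Pola1 regions above, these 7 were 2 control virus regions named for Orc4 with 6 and 5 reads, 1 in an Rfc4 intron with 5 and 1 distal to Pif1 with 6, each with 0 Ets-1 virus reads and 0 input reads.

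A list of 40 other replication genes, covering further polymerase subunits, checkpoint, chromatin assembly and nucleotide supply genes, gave control virus promoter peaks for 15 (37.5%, against 41.2% of all protein-coding genes) and Ets-1 virus promoter peaks for 16 (40.0%, against 31.9%). At a q of 0.05 or less, 1 was left in each library, Top2a with the control virus and E2f3 with the Ets-1 virus, or 2.50% against 0.647% and 1.44%. Promoter regions with 5 or more reads numbered 7. Of these, 3 were at least 2-fold higher with the Ets-1 virus (E2f3, Dscc1 and a Top2a region), or 42.9% against 27.2%. Lower by that factor was 1, another Top2a region, or 14.3% against 29.2%. Each of the 7 reached 5 reads through 1 precipitated library alone, so, as for the members, nothing is read from these counts. E2f3, an E2F factor, held 9, 0 and 1 reads in the Ets-1 virus, control virus and input libraries, and Dscc1, a subunit of an alternative clamp loader, held 8, 2 and 0.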

How the data were processed

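Per the labels' protocols, Min6 cells in 25 mM glucose were crosslinked with formaldehyde 24 h after infection, and sequencing was paired-end. FastQC, Trimmomatic, BWA 0.7.12 and MACS2 2.1.0 with build mm10 were used, per the submitters' processing notes; settings and the use of the input as control are not stated in the labels. The authors deposited read counts per merged region, RPM values of the count plus 1, the ratio of each precipitated library's RPM to that of the input, and the log2 ratio between the viruses, as read from the file headers and the values themselves. Per the file headers, deposited peaks have a score, a fold over local background and the −log10 of p and q, used only to describe or filter peaks within a list. Peak starts were raised by 1.

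Members were matched by deposited gene name, with the same result by gene ID against GENCODE M21. Promoters are those of the deposited annotation, from 2000 bp before to 1000 bp after a start. Library totals follow from the count plus 1 divided by RPM. Even counts made up 72.0% and 74.5% of nonzero Ets-1 and control virus counts and 19.0% in the input. Intervals therefore used fragments of 2 reads, with odd counts rounded up, and ratios to input have none. A library at 0 was taken at 3 reads. Regions needed 5 reads in either precipitated library for a call, and a 2-fold ratio. Genes described singly had such a promoter region or a promoter peak of q at most 0.05; other regions from 8 reads. Sequences were shown for members with a promoter region of 10 or more reads; that of Mcm4, the principal start windows, the word searches and the non-promoter regions under 8 reads were added after values were seen. Members and lists were chosen with earlier results of these data known. Interval coverage was tested on simulated pairs of fragment counts, with 2 reads in every fragment and no selection by reads. The data hold odd counts and regions selected by reads, so that test does not cover the intervals as used here. Software was scipy 1.17.1, pandas 2.3.3, numpy 2.4.6, pysam 0.24.0 and matplotlib 3.10.9 under Python 3.11.15.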

Additional observations from a re-analysis of the deposited data

How the results depend on the processing

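No paired analysis was possible because the viruses and the input have 1 library each. As deposited, 21 members had a control virus promoter peak and 14 had an Ets-1 virus promoter peak. At a deposited q of 0.05 or less these counts fell to 2 and 5, as they did at a fold of 3 or more. Within 1 kb of a principal start (an alternative chosen after seeing the data) they fell to 13 and 9. When peaks of any annotation were counted, both rose, to 31 (control virus) and 25 (Ets-1 virus). The count of 4 regions higher with the Ets-1 virus stayed within 3 to 5 under the 6 alternatives run. The count of 1 lower region became 2 with no minimum above the floor and 4 with any annotation. The ratio to input of 8.46 with the Ets-1 virus became 0.586 when scaled to reads in listed regions and 28.1 without Pif1; the ratio of 7.13 with the control virus became 0.385, 24.8 and, over regions with 5 or more reads, 4.67. Listed regions held 42.8%, 54.8% and 2.96% of the Ets-1 virus, control virus and input reads, which sets the change on rescaling; the cause of these shares was not tested. On reads instead of fragments, the lower bound for Rfc4 was 2.55.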
